A study of Mus musculus with 12 samples.

Results

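The genes described here are 57 mouse genes of nucleolar ribosome biogenesis, out of 24411 symbols in the count table. They come from a fixed list of symbols that was drawn up with earlier results of these data known. All 57 were in the table, and all 57 passed the filter on low counts, with 184 or more reads in every library. By step, 7 belong to RNA polymerase I and its initiation factors, 7 to the small nucleolar ribonucleoproteins (snoRNPs), 21 to the small subunit, 18 to the large subunit, and 4 act at several steps.

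Ribosomes are assembled in the nucleolus. RNA polymerase I transcribes a long ribosomal RNA precursor, snoRNPs guide its methylation and pseudouridylation, and assembly factors then fold, cut and export the small and the large subunit. In blood progenitors this pathway is known to run at a high rate during growth and to decline as granulocytes mature.

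RNA was sequenced from HoxB8 cells, immortalised mouse bone marrow progenitors, 24 h after estrogen was removed from the medium. Each population carried a pair of vectors: pMIG, empty or with Asxl1-MT2 (truncated Asxl1), and pMICH, empty or with CSF3R T618I (a mutated receptor for granulocyte colony-stimulating factor). The 4 groups, with 3 libraries each, were Asxl1-MT2/T618I (both constructs), Empty/T618I, Asxl1-MT2/Empty and Empty/Empty, and all of them had lost estrogen for the same time. Both constructs were overexpressed on top of the cells' own genes, in a single line. The labels do not say whether libraries of 1 group stem from separate cultures, and p-values therefore cover only a spread between libraries that could be technical.

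Library totals ran from 9341984 to 10252291 counts. Levels are CPM (counts scaled to a common library size) with TMM factors. Libraries are named by the letters A, B and C of the deposited columns, which the labels do not link to the numbers in the titles. One library titled Empty/Empty has a genotype label that names T618I, and its letter is not known. Groups follow the titles, and Socs3, a feedback gene of cytokine signalling, was at 264, 228 and 196 CPM in Asxl1-MT2/T618I, 167, 151 and 176 CPM in Empty/T618I, 10.7, 10.4 and 11.1 CPM in Asxl1-MT2/Empty and 13.8, 11.9 and 12.4 CPM in Empty/Empty. Asxl1 was at 919 to 1086 CPM in Asxl1-MT2/T618I and at 134 to 167 CPM in Empty/T618I. It was at 1678 to 1833 CPM in Asxl1-MT2/Empty against 116 to 125 CPM in Empty/Empty. The receptor gene Csf3r averaged 1330 CPM in Asxl1-MT2/T618I, 431 CPM in Empty/T618I, 293 CPM in Asxl1-MT2/Empty and 298 CPM in Empty/Empty. Whether reads of Asxl1 and Csf3r stem from the constructs or from the cells' own genes was not tested. Hoxb8 was at 559 to 586 CPM in Asxl1-MT2/T618I, 242 to 332 CPM in Empty/T618I, 646 to 769 CPM in Asxl1-MT2/Empty and 626 to 705 CPM in Empty/Empty.

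With both constructs, nearly all of the 57 genes stood lower than with CSF3R T618I alone. The 57 genes together held 0.735% ± 0.0792 of all counts in Asxl1-MT2/T618I, 1.19% ± 0.0481 in Empty/T618I, 0.909% ± 0.0756 for Asxl1-MT2/Empty and 0.998% ± 0.0586 with both vectors empty (SD, n = 3 each). For 52 of the 57 the mean was highest in Empty/T618I, against 25.4% of all genes tested, and for 51 it was lowest in Asxl1-MT2/T618I, against 33.9%. Both held for 47 of the 57, against 11.7%. In 27 genes the 3 Asxl1-MT2/T618I libraries were the lowest 3 of the 12, against 11.3% of all genes.

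**Figure D1:**
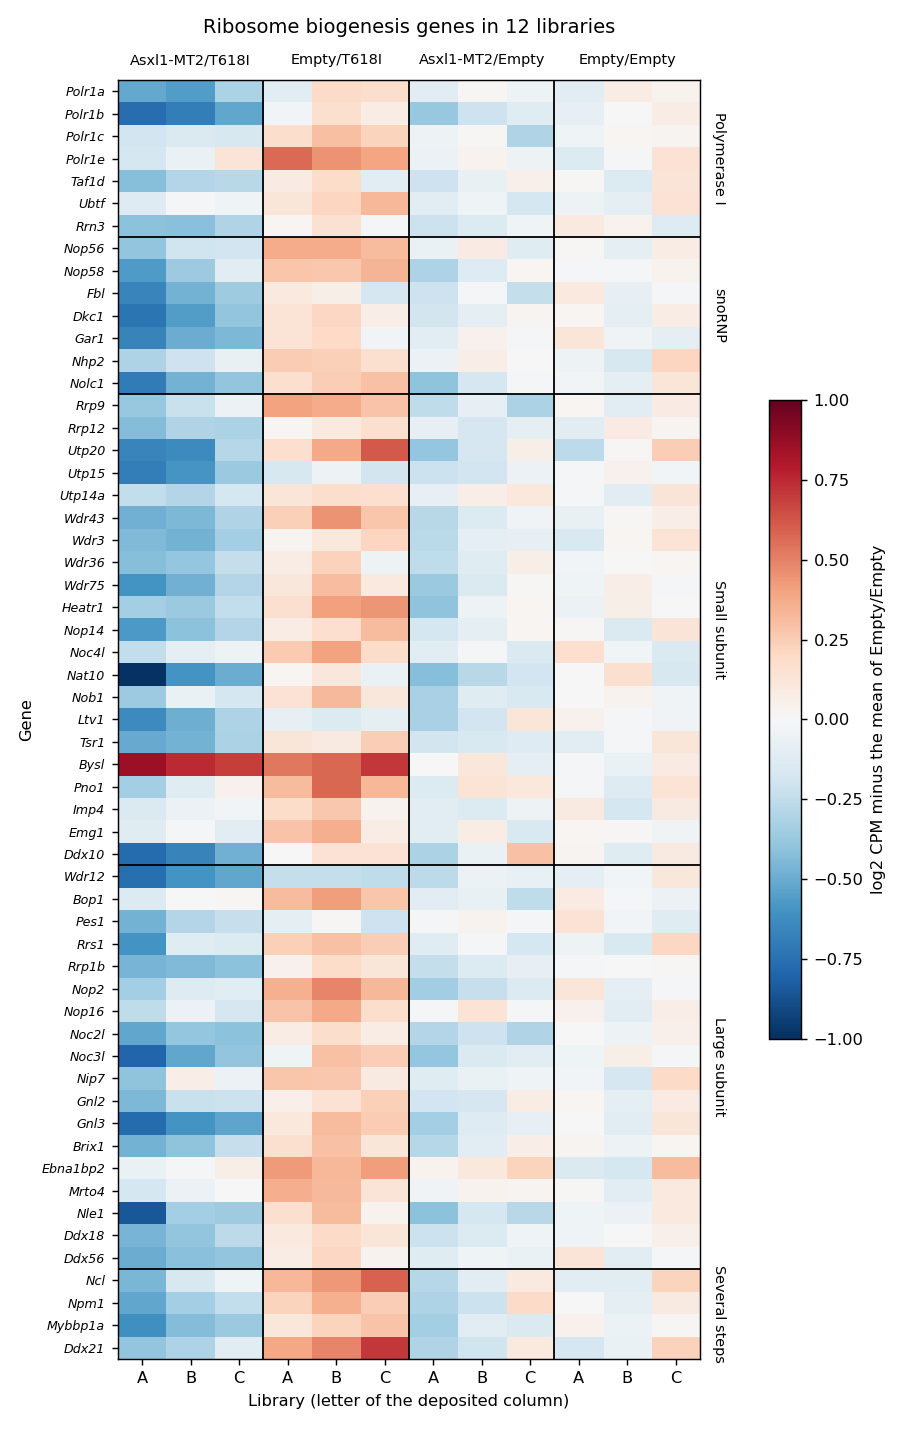
Level of each of the 57 genes (rows, by step) in each of the 12 libraries (columns, by group), as log2 CPM minus the mean of Empty/Empty; red is above and blue below that mean. The Asxl1-MT2/T618I columns are blue for most rows and the Empty/T618I columns red for most rows, while Bysl is red in both T618I groups.

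Levels per length of annotated exons, in CPM per kb, differed widely between the genes. In Empty/Empty the highest value per kb was that of Npm1, the histone chaperone nucleophosmin, at 558. The RNA-binding protein nucleolin (Ncl) at 144 and the snoRNP protein Nhp2 at 125 came next. The polymerase I subunit Polr1e at 5.87 CPM per kb and the polymerase I initiation factor subunit Taf1d at 6.45 were lowest. This order depends on the length used, which is the union of all annotated exons. It was 2665 bases for Npm1, 10188 for Ncl and 8949 for Taf1d. Without division by length, Npm1 and Ncl were close in Empty/Empty, at 1487 and 1463 CPM on average. Per kb, the same 3 genes led in Asxl1-MT2/T618I too, with Npm1 at 432, Ncl at 123 and Nhp2 at 109 CPM per kb. In 8 of the 57 genes the introns or exons contain snoRNA genes, 29 in all, among them 8 in Taf1d, 5 in Nop56 and 4 in Nop58, and reads of a snoRNA inside an exon cannot be told apart from those of its host here.

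The promoters were searched for the E-box CACGTG, the sequence bound by Myc with its partner Max, because Myc is a known activator of this pathway and its own level differed between the groups. RefSeq windows on GRCm38.p6 (mm10), from 250 bases before to 50 bases after the start, were at hand for 50 of the 57 genes. Bop1, Fbl, Gnl2, Npm1, Rrp12, Rrs1 and Wdr36 had none. CACGTG, which reads the same on either strand, was present in 11 of the 50 (22%), against 11.9% of 8920 genes with such a window. The 12 sites follow, 5′ to 3′ on the gene's strand, with the E-box in capitals; 4 lie before the start and 8 after it.
Imp4 (chr1:34439696-34439725, plus strand): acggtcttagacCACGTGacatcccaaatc
Ltv1 (chr10:13193092-13193121, minus strand): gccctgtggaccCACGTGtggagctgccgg
Mybbp1a (chr11:72441355-72441376, plus strand): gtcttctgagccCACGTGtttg
Nle1 (chr11:82908355-82908384, minus strand): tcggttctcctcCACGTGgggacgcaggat
Nop2 (chr6:125131811-125131840, plus strand): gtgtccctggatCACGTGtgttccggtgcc
Pes1 (chr11:3963965-3963994, plus strand): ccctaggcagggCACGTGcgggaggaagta
Pno1 (chr11:17211540-17211564, minus strand): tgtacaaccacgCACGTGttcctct
Rrn3 (chr16:13780472-13780501, plus strand): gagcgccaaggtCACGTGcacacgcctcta
Rrn3 (chr16:13780639-13780668, plus strand): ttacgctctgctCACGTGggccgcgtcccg
Tsr1 (chr11:74898092-74898121, plus strand): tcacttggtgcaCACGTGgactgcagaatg
Utp20 (chr10:88826765-88826789, minus strand): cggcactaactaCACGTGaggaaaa
Wdr43 (chr17:71616220-71616249, plus strand): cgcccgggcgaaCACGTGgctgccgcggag

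The 11 genes with an E-box and the 39 with a window but none had medians close to each other in the main comparison. For the interaction the medians were -0.39 and -0.46. In Asxl1-MT2/T618I against Empty/T618I the median log2 fold change was -0.58 in the 11, with a range from -0.92 to -0.23, and -0.55 in the 39, with a range from -0.86 to 0.16. The ETS-type motif CCGGAAGT, searched on both strands, was in 14 of the 50 windows' genes (28.0%) against 9.69% of genes, and the STAT-type motif TTCNNNGAA in 7 (14.0%) against 8.48%. The 10-letter palindrome bound by BANP, a factor of CpG island promoters, was in 0 of the 50 against 1.20%. In Asxl1-MT2/T618I against Empty/T618I the median was -0.47 in the 14 genes with the ETS-type motif and -0.58 in the 36 with a window but without it. These are matches of letters, not measured binding.

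With Asxl1-MT2 added to T618I cells, transcripts of the 57 genes were lower at every step. Of the 57 genes, 56 fell and 0 rose in Asxl1-MT2/T618I against Empty/T618I (edgeR, adjusted p under 0.05), where 18.5% of all 11578 genes tested fell and 25.4% rose. The CPM ranges of the 3 and 3 libraries did not overlap for the same 56 genes, against 25% of all genes in that direction. The median log2 fold change was -0.55, beside 0.01 over all genes tested. All 7 polymerase I genes, all 7 snoRNP genes, 20 of 21 small subunit genes, all 18 large subunit genes and all 4 genes of several steps fell, and Bysl alone did not. Without TMM factors, on library totals alone, the median of all genes moved to -0.12, the share of higher calls among all calls to 39.2%, against 57.8% with the factors, and 56 of the 57 genes fell, with a median of -0.67. The late neutrophil marker list stood apart in the same libraries: all 11 of its genes rose, and their summed level was 19910 to 27934 CPM in Asxl1-MT2/T618I against 3671 to 4773 CPM in Empty/T618I. Csf3r rose as well in this comparison (edgeR, log2 fold change 1.63, SE 0.17, adjusted p = 8.5e-07). Hoxb8 rose too (log2 fold change 0.97, SE 0.10, adjusted p = 9.65e-07). The part of these markers, of Csf3r and of Hoxb8 in the result was not tested. In bulk RNA, fewer cells of a type and less RNA per cell cannot be told apart.

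**Figure D2:**
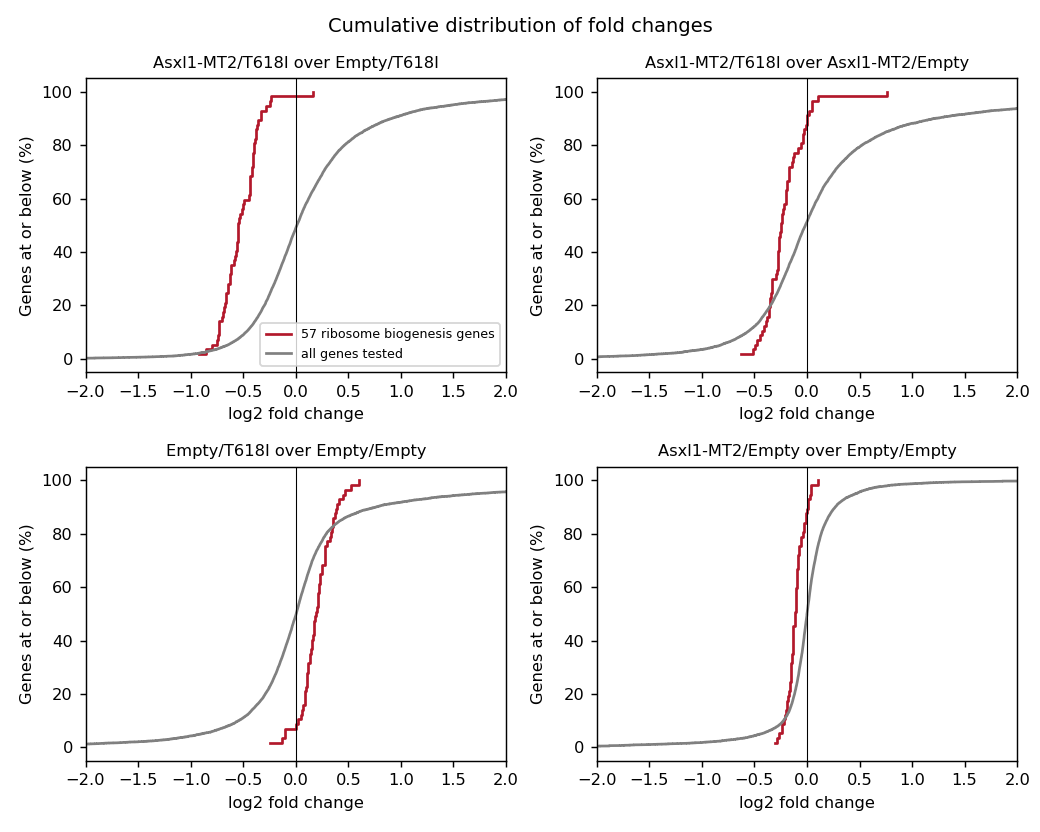
Cumulative percent of genes at or below each log2 fold change (x axis) in 4 comparisons, for the 57 ribosome biogenesis genes (red) and all 11578 genes tested (grey). In Asxl1-MT2/T618I over Empty/T618I the red curve lies left of 0 for 56 of 57 genes, and in Empty/T618I over Empty/Empty it lies right of 0 for 53 of 57.

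Among the polymerase I genes, Polr1b, the second-largest subunit (chr2:129100970-129128060, plus strand, mm10), fell most. It was at 49.8, 52.2 and 58.9 CPM in Asxl1-MT2/T618I, 83.0, 94.5 and 89.2 CPM in Empty/T618I, 65.1, 73.4 and 77.5 CPM in Asxl1-MT2/Empty and 79.9, 84.9 and 89.1 CPM in Empty/Empty. All 3 libraries with both constructs were below every library of the other groups (log2 fold change -0.73, SE 0.09, adjusted p = 7.79e-06 for Asxl1-MT2/T618I against Empty/T618I). Polr1a, the largest, catalytic subunit, had 86.5, 83.6 and 99.1 CPM in Asxl1-MT2/T618I, 114, 141 and 139 CPM in Empty/T618I, 114, 124 and 119 CPM in Asxl1-MT2/Empty and 115, 129.5 and 126 CPM in Empty/Empty, and it too was lowest in the 3 libraries with both constructs (log2 fold change -0.55, SE 0.09, adjusted p = 0.000176). Rrn3, which brings the polymerase to its promoter, showed the same order, with 85.0, 84.9 and 91.9 CPM in Asxl1-MT2/T618I, 115, 126 and 113 CPM in Empty/T618I, 97.4, 103 and 109.9 CPM in Asxl1-MT2/Empty and 121, 116 and 103 CPM in Empty/Empty (log2 fold change -0.43, SE 0.08, adjusted p = 0.00049).

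Ubtf, the factor that binds ribosomal DNA promoters, moved least of the 7. Its levels were 187, 201 and 199 CPM in Asxl1-MT2/T618I, 222, 237 and 256 CPM in Empty/T618I, 189, 198 and 180.4 CPM in Asxl1-MT2/Empty and 197, 192 and 225 CPM in Empty/Empty. The fall against Empty/T618I (log2 fold change -0.29, SE 0.08, adjusted p = 0.00899) left the libraries with both constructs overlapping those of Empty/Empty. Polr1e, a polymerase subunit, behaved likewise: 20.2, 21.8 and 25.0 CPM in Asxl1-MT2/T618I and 33.8, 31.3 and 30.1 CPM in Empty/T618I, against 21.9, 23.4 and 22.1 CPM in Asxl1-MT2/Empty and 20.7, 22.7 and 25.3 CPM in Empty/Empty. Only the Empty/T618I libraries stood apart (log2 fold change -0.51, SE 0.11, adjusted p = 0.00119 for Asxl1-MT2/T618I against Empty/T618I). Polr1c, shared with polymerase III, and Taf1d had log2 fold changes of -0.40 and -0.39.

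Transcripts of the snoRNP proteins fell by 0.41 to 0.75 on the log2 scale, with a median of -0.63. Nolc1, a chaperone of both snoRNP classes, was at 182, 214 and 225 CPM in Asxl1-MT2/T618I, 331, 351 and 363 CPM in Empty/T618I, 224, 264 and 293 CPM in Asxl1-MT2/Empty and 291, 278 and 322 CPM in Empty/Empty (log2 fold change -0.75, SE 0.10, adjusted p = 1.55e-05 for Asxl1-MT2/T618I against Empty/T618I). The libraries with both constructs lay below all others, except that the highest of them was level with the lowest Asxl1-MT2/Empty library. Of the H/ACA proteins, Dkc1, the pseudouridine synthase, had 112, 127 and 142 CPM in Asxl1-MT2/T618I, 205, 215 and 195 CPM in Empty/T618I, 164, 176 and 190.0 CPM in Asxl1-MT2/Empty and 189, 174 and 196 CPM in Empty/Empty (log2 fold change -0.69, SE 0.09, adjusted p = 1.19e-05). Gar1, its partner, had 49.9, 56.2 and 57.9 CPM in Asxl1-MT2/T618I, 87.1, 91.0 and 78.1 CPM in Empty/T618I, 73.4, 81.8 and 78.3 CPM in Asxl1-MT2/Empty and 86.3, 77.5 and 74.7 CPM in Empty/Empty (log2 fold change -0.64, SE 0.09, adjusted p = 2.41e-05). For Dkc1 and Gar1 the libraries with both constructs lay below all others.

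Of the transcripts of box C/D proteins, Nop56 and Nop58 were higher in Empty/T618I than in all 3 other groups, and Fbl was not. Nop56, a core protein of these particles, was at 186, 213 and 214 CPM in Asxl1-MT2/T618I, 316, 317 and 305 CPM in Empty/T618I, 234, 258 and 225 CPM in Asxl1-MT2/Empty and 247, 230.3 and 258 CPM in Empty/Empty (log2 fold change -0.61, SE 0.08, adjusted p = 1.13e-05 for Asxl1-MT2/T618I against Empty/T618I). The T618I libraries without Asxl1-MT2 were the highest of the 12 and those with it the lowest. Nop58, its paralogue, was at 154, 177 and 212 CPM in Asxl1-MT2/T618I, 276, 275 and 289 CPM in Empty/T618I, 184, 208 and 231 CPM in Asxl1-MT2/Empty and 226, 225 and 234 CPM in Empty/Empty (log2 fold change -0.63, SE 0.10, adjusted p = 0.00011). Fbl, the methyltransferase fibrillarin, had 93.9, 107 and 116 CPM in Asxl1-MT2/T618I, 159, 155 and 132 CPM in Empty/T618I, 128, 146 and 125 CPM in Asxl1-MT2/Empty and 159, 139.9 and 146 CPM in Empty/Empty (log2 fold change -0.49, SE 0.10, adjusted p = 0.000578). Unlike in Nop56, the Fbl libraries of Empty/T618I and Empty/Empty overlapped.

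In the small subunit group Utp20, a large scaffold protein of the processome (chr10:88746607-88826814, minus strand), had the largest fall of the 57 genes. It was at 62.6, 63.8 and 81.6 CPM in Asxl1-MT2/T618I, 112, 129 and 152 CPM in Empty/T618I, 75.7, 88.3 and 103 CPM in Asxl1-MT2/Empty and 83.0, 100.3 and 118 CPM in Empty/Empty (log2 fold change -0.92, SE 0.15, adjusted p = 8.45e-05 for Asxl1-MT2/T618I against Empty/T618I). Its spread within groups was also wide, and the libraries with both constructs overlapped those of Asxl1-MT2/Empty. Wdr43, a processome protein, was at 118, 121 and 134 CPM in Asxl1-MT2/T618I, 195, 226 and 200.04 CPM in Empty/T618I, 136, 149.9 and 161 CPM in Asxl1-MT2/Empty and 156, 166 and 172 CPM in Empty/Empty (log2 fold change -0.74, SE 0.09, adjusted p = 3.51e-06). Heatr1, another processome scaffold, had 163, 159.6 and 174 CPM in Asxl1-MT2/T618I, 231, 275 and 281 CPM in Empty/T618I, 157, 199.7 and 210.1 CPM in Asxl1-MT2/Empty and 199, 216 and 206 CPM in Empty/Empty (log2 fold change -0.66, SE 0.10, adjusted p = 6.24e-05). In Wdr43 and Heatr1 the Empty/T618I libraries were above all others.

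Ddx10, an RNA helicase, was at 38.1, 40.9 and 46.8 CPM in Asxl1-MT2/T618I, 65.2, 72.0 and 72.0 CPM in Empty/T618I, 52.4, 62.3 and 79.8 CPM in Asxl1-MT2/Empty and 66.6, 60.04 and 69.4 CPM in Empty/Empty (log2 fold change -0.73, SE 0.13, adjusted p = 0.000186 for Asxl1-MT2/T618I against Empty/T618I). The libraries with both constructs were alone at the low end. Rrp9, a protein of the U3 snoRNP, followed the other pattern, with 32.9, 36.8 and 41.3 CPM in Asxl1-MT2/T618I, 56.9, 55.6 and 52.4 CPM in Empty/T618I, 36.0, 40.5 and 34.4 CPM in Asxl1-MT2/Empty and 43.5, 40.0 and 45.5 CPM in Empty/Empty (log2 fold change -0.57, SE 0.10, adjusted p = 0.000188). Nob1, the endonuclease that makes the end of the small subunit rRNA, had 37.2, 45.6 and 42.5 CPM in Asxl1-MT2/T618I, 53.0, 60.1 and 51.9 CPM in Empty/T618I, 38.3, 44.0 and 43.1 CPM in Asxl1-MT2/Empty and 47.7, 49.1 and 46.8 CPM in Empty/Empty (log2 fold change -0.40, SE 0.10, adjusted p = 0.00298). Pno1, the partner that holds Nob1 in place, was at 56.3, 65.8 and 73.4 CPM in Asxl1-MT2/T618I, 89.0, 107 and 89.95 CPM in Empty/T618I, 64.8, 78.7 and 76.6 CPM in Asxl1-MT2/Empty and 71.0, 65.4 and 78.4 CPM in Empty/Empty (log2 fold change -0.55, SE 0.11, adjusted p = 0.000768). In Rrp9, Nob1 and Pno1 the Empty/T618I libraries were the highest of the 12, while those with both constructs overlapped Asxl1-MT2/Empty.

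The other small subunit genes fell by 0.24 to 0.70 on the log2 scale. Nat10, an rRNA acetyltransferase, had the largest of these falls (log2 fold change -0.70, SE 0.12, adjusted p = 0.000112), with 59.1, 77.7 and 83.4 CPM in Asxl1-MT2/T618I and 119, 127 and 112 CPM in Empty/T618I. The processome proteins Wdr75, Wdr3, Wdr36, Utp15 and Utp14a had log2 fold changes of -0.63, -0.54, -0.44, -0.42 and -0.39, and Nop14 and Noc4l, which act together there, of -0.61 and -0.42. Of the late factors, Tsr1 was at -0.58, the export factor Rrp12 at -0.44 and Ltv1 at -0.37. Of the 3837 annotated exon bases of Tsr1, 1240 overlap exons of Srr on the opposite strand. Srr fell as well (edgeR, log2 fold change -0.50, SE 0.09, adjusted p = 0.000274), and the part of this overlap in the Tsr1 values was not tested. The U3 protein Imp4 and the rRNA methyltransferase Emg1 fell least, with -0.24 and -0.33, and in both the libraries with both constructs overlapped Empty/Empty.

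Of the large subunit genes Gnl3, the nucleolar GTPase nucleostemin (chr14:31012433-31019131, minus strand), fell most. It was at 70.2, 78.8 and 82.9 CPM in Asxl1-MT2/T618I, 129, 149 and 143 CPM in Empty/T618I, 94.5, 109 and 113 CPM in Asxl1-MT2/Empty and 119, 110.4 and 129.8 CPM in Empty/Empty (log2 fold change -0.86, SE 0.09, adjusted p = 1.76e-06 for Asxl1-MT2/T618I against Empty/T618I). Every library with both constructs was below every other library. Noc3l, a factor of early assembly, had 23.9, 28.9 and 31.6 CPM in Asxl1-MT2/T618I, 40.3, 51.0 and 49.4 CPM in Empty/T618I, 31.7, 37.7 and 38.6 CPM in Asxl1-MT2/Empty and 40.3, 43.2 and 41.3 CPM in Empty/Empty (log2 fold change -0.73, SE 0.12, adjusted p = 9.73e-05). Nop2, an rRNA cytosine methyltransferase, had 99.6, 116 and 117 CPM in Asxl1-MT2/T618I, 161, 177 and 159 CPM in Empty/T618I, 99.4, 108 and 115 CPM in Asxl1-MT2/Empty and 138, 118 and 125 CPM in Empty/Empty (log2 fold change -0.59, SE 0.09, adjusted p = 5.15e-05). With both constructs Nop2 overlapped Asxl1-MT2/Empty, whereas Noc3l lay just below it.

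Bop1, Pes1 and Wdr12 form the PeBoW complex of large subunit processing, and the 3 genes did not share a pattern. Bop1 was at 128, 141 and 143 CPM in Asxl1-MT2/T618I, 176, 189 and 171 CPM in Empty/T618I, 131, 134 and 119 CPM in Asxl1-MT2/Empty and 149.8, 139 and 135 CPM in Empty/Empty (log2 fold change -0.38, SE 0.08, adjusted p = 0.000938 for Asxl1-MT2/T618I against Empty/T618I). Pes1 was at 162, 184 and 191 CPM in Asxl1-MT2/T618I, 209.6, 226 and 194 CPM in Empty/T618I, 222, 231 and 223 CPM in Asxl1-MT2/Empty and 249, 221 and 206 CPM in Empty/Empty (log2 fold change -0.23, SE 0.09, adjusted p = 0.041). Bop1 stood out by its high Empty/T618I libraries, and Pes1, the smallest fall of the 56, by low libraries with both constructs. Wdr12 was at 60.7, 67.7 and 71.6 CPM in Asxl1-MT2/T618I, 87.0, 86.9 and 85.7 CPM in Empty/T618I, 85.5, 98.5 and 97.1 CPM in Asxl1-MT2/Empty and 96.2, 101 and 111 CPM in Empty/Empty (log2 fold change -0.38, SE 0.09, adjusted p = 0.0022), so that it was lower in T618I cells with and without Asxl1-MT2.

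The other large subunit genes fell by 0.33 to 0.67 on the log2 scale. Nle1, a late nuclear factor, was at 19.5, 27.9 and 27.7 CPM in Asxl1-MT2/T618I and 39.5, 44.0 and 36.3 CPM in Empty/T618I (log2 fold change -0.67, SE 0.13, adjusted p = 0.000381), and library A of Asxl1-MT2/T618I was the lowest of the 12. Brix1, Rrp1b, Noc2l and Rrs1 had log2 fold changes of -0.56, -0.55, -0.55 and -0.53, and the helicases Ddx56 and Ddx18 of -0.55 and -0.51. The GTPase Gnl2 was at -0.44, Nop16 at -0.44, Ebna1bp2 at -0.41, Mrto4, an assembly factor of the ribosomal stalk, at -0.36 and Nip7 at -0.33.

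The 4 genes of several steps all fell by 0.64 or more on the log2 scale. Ddx21, a helicase that joins polymerase I transcription to rRNA processing, was at 207, 220.2 and 253 CPM in Asxl1-MT2/T618I, 357, 383 and 445 CPM in Empty/T618I, 221, 237 and 292 CPM in Asxl1-MT2/Empty and 243, 261 and 319.5 CPM in Empty/Empty (log2 fold change -0.80, SE 0.12, adjusted p = 5.38e-05 for Asxl1-MT2/T618I against Empty/T618I). Ncl was at 1057, 1299.6 and 1415 CPM in Asxl1-MT2/T618I, 1828, 1966 and 2193 CPM in Empty/T618I, 1196, 1345 and 1559 CPM in Asxl1-MT2/Empty and 1341, 1354 and 1695 CPM in Empty/Empty (log2 fold change -0.67, SE 0.12, adjusted p = 0.00034). In both genes the Empty/T618I libraries were highest and the other 3 groups overlapped. Npm1 was at 1034, 1171 and 1251 CPM in Asxl1-MT2/T618I, 1737, 1904 and 1758 CPM in Empty/T618I, 1198, 1281 and 1693 CPM in Asxl1-MT2/Empty and 1488, 1392 and 1580.1 CPM in Empty/Empty (log2 fold change -0.64, SE 0.11, adjusted p = 0.000199). In Npm1 the libraries with both constructs overlapped only Asxl1-MT2/Empty. Mybbp1a, a nucleolar protein that binds Myb, fell by 0.68 on the log2 scale.

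**Figure D3:**
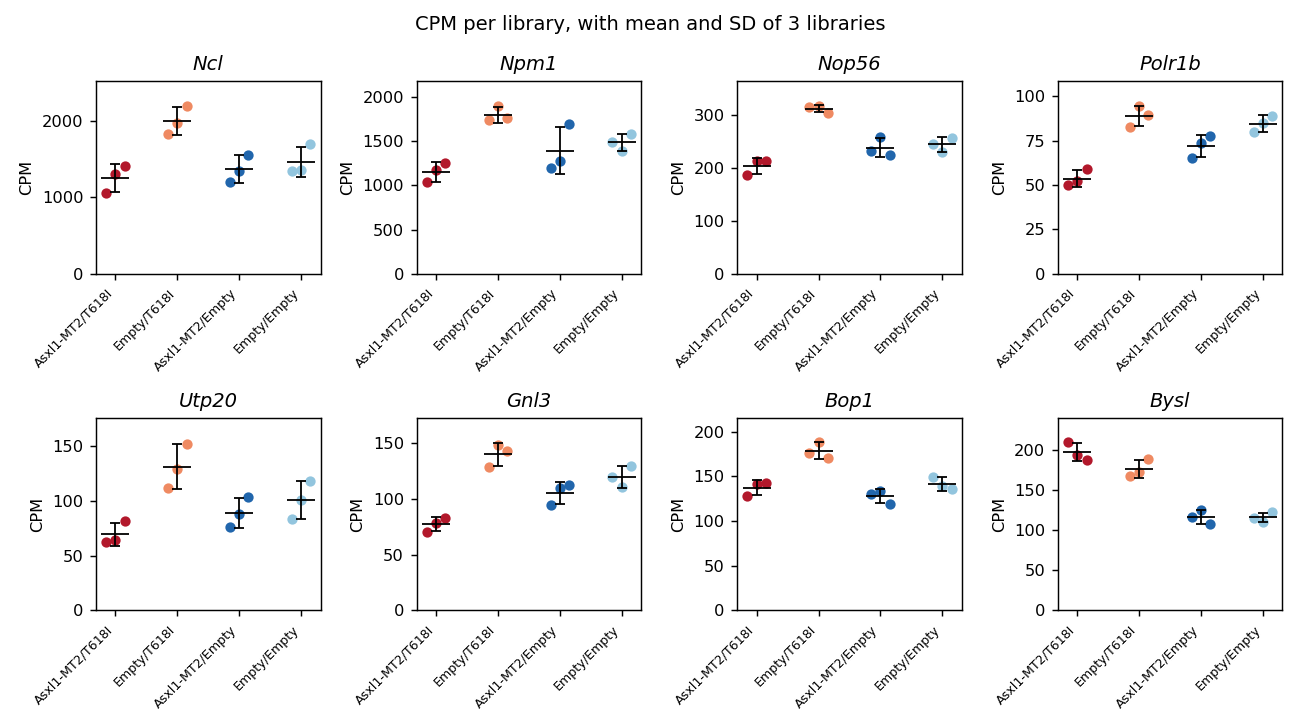
CPM of 8 genes in every library, by group (points), with the mean and SD of the 3 libraries (black). Empty/T618I is the highest group for Ncl, Npm1, Nop56, Polr1b, Utp20, Gnl3 and Bop1, and Asxl1-MT2/T618I is the highest for Bysl.

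CSF3R T618I alone raised part of the 57 genes. In Empty/T618I against Empty/Empty, 19 of the 57 genes rose, beside 17.6% of all genes tested, and 1 fell, beside 15.9%. The median log2 fold change was 0.19, beside 0.00 over all genes, and 53 of the 57 values were positive. By step, 2 of 7 polymerase I genes, 2 of 7 snoRNP genes, 8 of 21 small subunit genes, 5 of 18 large subunit genes and 2 of 4 genes of several steps rose. Ranges were apart and higher for 28 genes, against 22.9% of all genes. Of the 20 calls, 10 held when each library was left out in turn: Bop1, Bysl, Ddx21, Ncl, Nop2, Nop56, Pno1, Polr1e, Rrp9 and Wdr43. The rises numbered 11 without Empty/Empty library B and 12 without Empty/T618I library B. In the same comparison 8 of the 11 late neutrophil markers rose and 1 fell. Their summed level was 3671 to 4773 CPM in Empty/T618I against 1344 to 2272 CPM in Empty/Empty. All 7 early granule genes fell, and 15 of 16 mast cell and basophil genes rose. Hoxb8 fell (edgeR, log2 fold change -1.18, SE 0.10, adjusted p = 9.76e-08). The part of the markers and of Hoxb8 was not tested. The disputed label bears on this comparison. When library A, library B or library C of Empty/Empty was moved to Empty/T618I, 0, 0 and 7 of the 57 were called higher. Calls over all genes tested went from 3878 to 0, 0 and 995 in those runs. Such a move also changes the spread within Empty/T618I, so the lost calls cannot decide the label. Socs3 was at 11.9 to 13.8 CPM in the 3 Empty/Empty libraries and at 151 to 176 CPM in Empty/T618I.

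The 6 largest changes were rises. Bysl had a log2 fold change of 0.61, SE 0.08, adjusted p = 1.6e-05, and Ddx21 one of 0.53, SE 0.12, adjusted p = 0.0026. Polr1e followed with a log2 fold change of 0.47, SE 0.11, adjusted p = 0.00247, and Ncl with one of 0.45, SE 0.12, adjusted p = 0.00914. Pno1 had a log2 fold change of 0.41, SE 0.11, adjusted p = 0.00786, and Nop2 one of 0.39, SE 0.09, adjusted p = 0.00217. These are a helicase, a polymerase subunit, nucleolin, a methyltransferase and a pair of late small subunit factors. The single fall was Wdr12 (log2 fold change -0.25, SE 0.09, adjusted p = 0.0349), which was lost without library B or C of Empty/Empty, any library of Empty/T618I, or library B or C of Asxl1-MT2/T618I, with an adjusted p of up to 0.170. Among the other genes followed here, Nop56 rose by 0.35, Rrp9 by 0.36, Bop1 by 0.34, Heatr1 by 0.34, Nop58 by 0.29 and Ubtf by 0.22 on the log2 scale. Npm1 (log2 fold change 0.28, SE 0.11, adjusted p = 0.0682), Gnl3 (log2 fold change 0.22, SE 0.09, adjusted p = 0.0741) and Nolc1 (log2 fold change 0.23, SE 0.10, adjusted p = 0.0867) missed the threshold. Polr1a, Polr1b, Rrn3, Fbl, Dkc1, Nob1 and Pes1 had log2 fold changes of 0.09, 0.07, 0.05, 0.00, 0.14, 0.20 and -0.10 and were not called.

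Asxl1-MT2 alone gave no call among these genes. In Asxl1-MT2/Empty against Empty/Empty, edgeR called 0 of the 57 higher and 0 lower, with 7 at an unadjusted p under 0.05, beside 10.9% of all genes, and the DESeq2 Wald test called 1 lower, Noc2l. The 7 became 1 without Asxl1-MT2/Empty library A and 14 without its library C. Over all genes tested, 1.24% were called higher and 0.622% lower, 1.86% in all. The median log2 fold change was -0.11, beside 0.00 over all genes, and 51 of the 57 values were negative. With 1 library left out the median ran from -0.17, without Asxl1-MT2/Empty library C, to -0.06, without its library A. Of the mast cell and basophil genes, 6 of 16 fell in this comparison. Ranges were apart and lower for 13 genes, against 7.06% of all genes, and higher for 0, against 8.82%. Noc2l, a nuclear assembly factor, came nearest the threshold (log2 fold change -0.27, SE 0.07, adjusted p = 0.0658), at 235, 249 and 234 CPM in Asxl1-MT2/Empty against 288, 277 and 297 CPM in Empty/Empty. Nat10, an rRNA acetyltransferase, had the largest value (log2 fold change -0.30, SE 0.11, adjusted p = 0.278), at 87.6, 96.9 and 103 CPM in Asxl1-MT2/Empty against 117, 132 and 105 CPM in Empty/Empty.

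The effect of Asxl1-MT2 differed between cells with and without T618I. The difference of the 2 effects, the interaction, was called for 33 of the 57 genes in the lower direction and 0 in the higher, beside 5.51% and 14.1% of all genes tested, 19.6% in both directions together. The median was -0.41, beside 0.02 over all genes. It was called for 3 of 7 polymerase I genes, 6 of 7 snoRNP genes, 11 of 21 small subunit genes, 9 of 18 large subunit genes and all 4 genes of several steps. Of the 33 calls, 17 held when each library was left out in turn, and the count was 18 without Empty/Empty library B, 20 without Asxl1-MT2/T618I library A and 21 without its library B. It was 4, 1 and 20 with library A, library B or library C of Empty/Empty moved to Empty/T618I. Calls over all genes went from 2273 to 711, 636 and 1488 in those runs. All 11 late neutrophil markers had a higher interaction in the same libraries, and so did Hoxb8 (edgeR, log2 fold change 0.85, SE 0.14, adjusted p = 0.000502). The part of the markers and of Hoxb8 was not tested. Without TMM factors 47 genes were called, and the share of higher calls over all genes was 48.5%, against 71.9% with the factors.

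The largest differences were in Utp20 (log2 fold change -0.75, SE 0.21, adjusted p = 0.0167), Ddx10 (log2 fold change -0.72, SE 0.18, adjusted p = 0.00856) and Gnl3 (log2 fold change -0.67, SE 0.13, adjusted p = 0.00187). For Utp20 the effect of Asxl1-MT2 was -0.92 in T618I cells and -0.17 in Empty cells. Ddx21 (log2 fold change -0.67, SE 0.17, adjusted p = 0.0115), Gar1 (log2 fold change -0.61, SE 0.13, adjusted p = 0.00267) and Dkc1 (log2 fold change -0.61, SE 0.13, adjusted p = 0.00289) came next. For Ddx21 the pair of effects was -0.80 and -0.14, and for Dkc1 -0.69 and -0.08. Nop56, Nolc1, Ncl and Npm1 had interaction values of -0.58, -0.56, -0.57 and -0.55, and Polr1a, Polr1b, Nop58 and Heatr1 of -0.50, -0.50, -0.49 and -0.53, all called. Ubtf, Rrn3, Fbl, Nob1, Rrp9, Bop1, Pes1 and Wdr12 were not called, at -0.18, -0.30, -0.34, -0.20, -0.35, -0.23, -0.23 and -0.24.

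**Figure D4:**
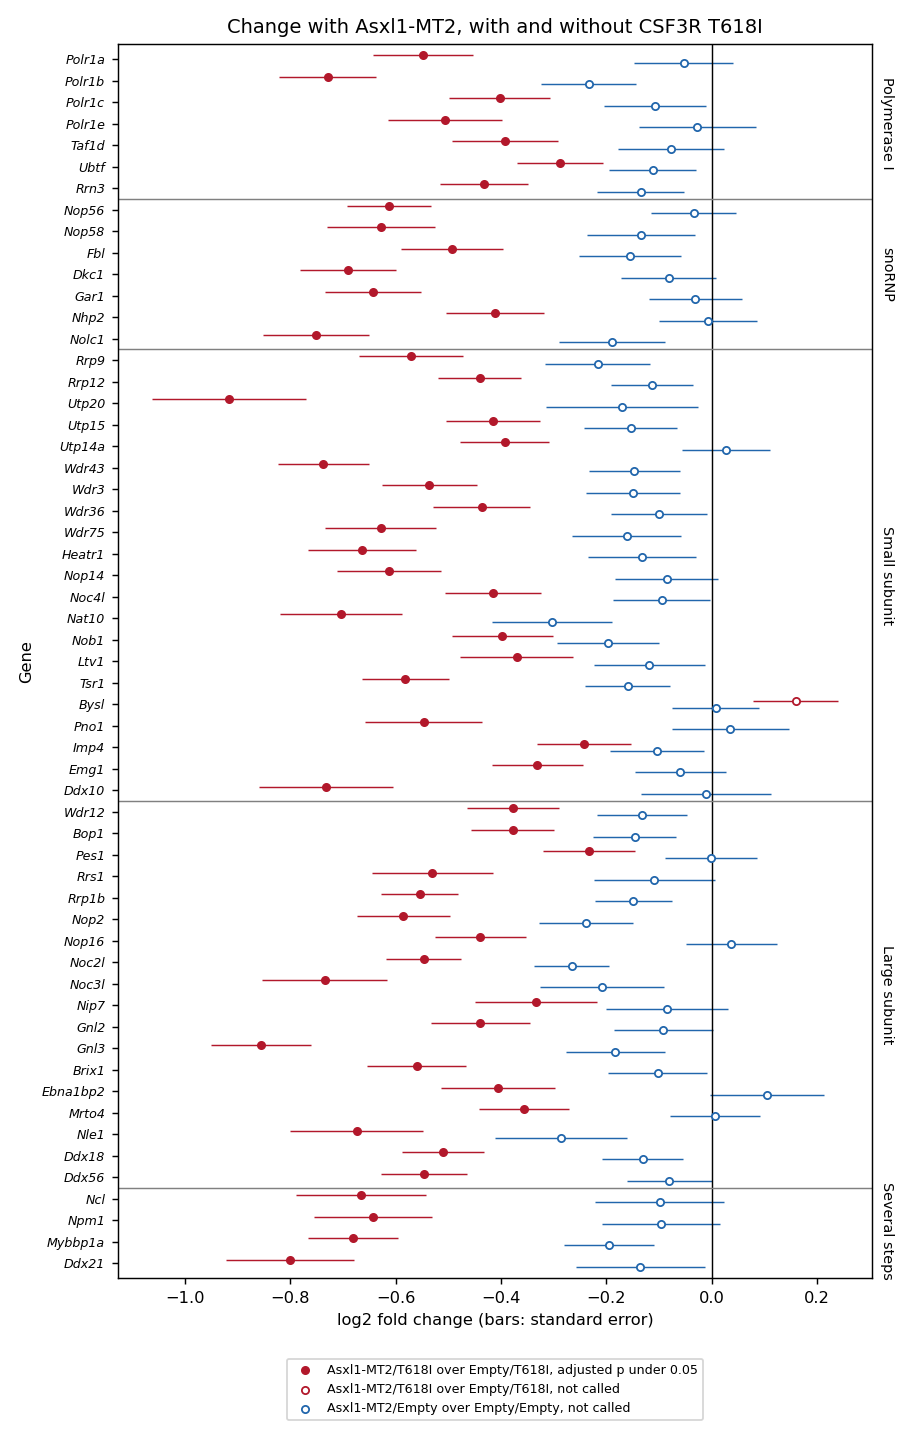
Log2 fold change of each gene with Asxl1-MT2, in cells with T618I (Asxl1-MT2/T618I over Empty/T618I, red) and without it (Asxl1-MT2/Empty over Empty/Empty, blue); bars are standard errors and filled points passed an adjusted p of 0.05. Red points lie left of the blue ones for 56 of the 57 genes, and no blue point is filled.

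T618I added to Asxl1-MT2 cells lowered 30 of the 57 genes and raised Bysl. In Asxl1-MT2/T618I against Asxl1-MT2/Empty, 30 of the 57 fell, beside 22.8% of all genes tested, and 1 rose, beside 26.9%. The median was -0.24, beside -0.02 over all genes. By step, 4 of 7 polymerase I genes, 5 of 7 snoRNP genes, 12 of 21 small subunit genes, 8 of 18 large subunit genes and 1 of 4 genes of several steps fell. The largest falls were in Ddx10 (log2 fold change -0.63, SE 0.13, adjusted p = 0.000583), Gar1 (log2 fold change -0.51, SE 0.09, adjusted p = 0.000178) and Wdr12 (log2 fold change -0.49, SE 0.09, adjusted p = 0.000169). Dkc1 (log2 fold change -0.47, SE 0.09, adjusted p = 0.000358) and Gnl3 (log2 fold change -0.45, SE 0.10, adjusted p = 0.000868) followed. Ncl (log2 fold change -0.12, SE 0.12, adjusted p = 0.437), Ddx21 (log2 fold change -0.14, SE 0.12, adjusted p = 0.357) and Bop1 (log2 fold change 0.11, SE 0.08, adjusted p = 0.284) did not pass. Of the 31 calls, 12 held when each library was left out in turn, and the number of falls then ran from 12 to 33: it was 12 without Asxl1-MT2/T618I library A, and 19 without its library B or without Asxl1-MT2/Empty library C. Without TMM factors 38 genes fell and the share of higher calls over all genes was 40.5%, against 54.1% with the factors. In the same libraries all 11 late neutrophil markers rose, with a summed level of 19910 to 27934 CPM in Asxl1-MT2/T618I against 1846 to 2692 CPM in Asxl1-MT2/Empty, 15 of 16 mast cell and basophil genes rose, and 6 of 7 early granule genes fell; their part was not tested.

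The comparisons share libraries: both comparisons of Asxl1-MT2/T618I share its 3 libraries, and those of T618I alone and Asxl1-MT2 alone share Empty/Empty. The Empty/T618I libraries are the tested side of T618I alone and the reference for the fall with both constructs. High values there raise the first and lower the second, so the 19 rises and the 56 falls are not separate results. Asxl1-MT2/Empty is shared in the same way between Asxl1-MT2 alone and Asxl1-MT2/T618I against Asxl1-MT2/Empty. Set side by side, Gnl3 had log2 fold changes of -0.86 against Empty/T618I and -0.45 against Asxl1-MT2/Empty, Polr1b -0.73 and -0.42, Ncl -0.67 and -0.12, and Rrp9 -0.57 and 0.00. Directly against Empty/Empty, the range of Asxl1-MT2/T618I was lower without overlap for 40 of the 57 genes, beside 28.3% of all genes, and higher for 1, Bysl, beside 31.3%. It overlapped for 16 genes, among them Ncl, Ddx21, Rrp9, Bop1, Pno1, Polr1e and Ubtf.

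Bysl, a late factor of the small subunit (chr17:47599331-47611492, minus strand), was the gene that did not follow. It was at 209, 194 and 187 CPM in Asxl1-MT2/T618I, 167, 173 and 189 CPM in Empty/T618I, 116, 125 and 108 CPM in Asxl1-MT2/Empty and 115, 110.4 and 122 CPM in Empty/Empty. All 6 T618I libraries were above all 6 libraries without it, and the 2 T618I groups overlapped (log2 fold change 0.16, SE 0.08, adjusted p = 0.12 for Asxl1-MT2/T618I against Empty/T618I). Against Asxl1-MT2/Empty it rose (log2 fold change 0.76, SE 0.08, adjusted p = 6.83e-07). Of its 3854 annotated exon bases, 361 overlap exons of Ccnd3, the cyclin D3 gene on the opposite strand, and since the strand setting of the counting is not given, reads there cannot be told apart. Ccnd3, looked up after the values of Bysl were seen, was at 888, 811 and 721 CPM in Asxl1-MT2/T618I, 557, 533 and 504 CPM in Empty/T618I, 326, 314 and 289 CPM in Asxl1-MT2/Empty and 351, 294 and 268 CPM in Empty/Empty. Both genes had their highest mean in Asxl1-MT2/T618I, and Ccnd3 rose there against Empty/T618I (log2 fold change 0.60, SE 0.10, adjusted p = 0.000119). The part of this overlap in the Bysl values was not tested. In all, 22 of the 57 genes share exon bases with another gene of the table, 21 of them with an antisense gene, and in Taf1d, Bysl, Emg1 and Gnl3 the partner was the more abundant one in Empty/Empty.

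**Figure D5:**
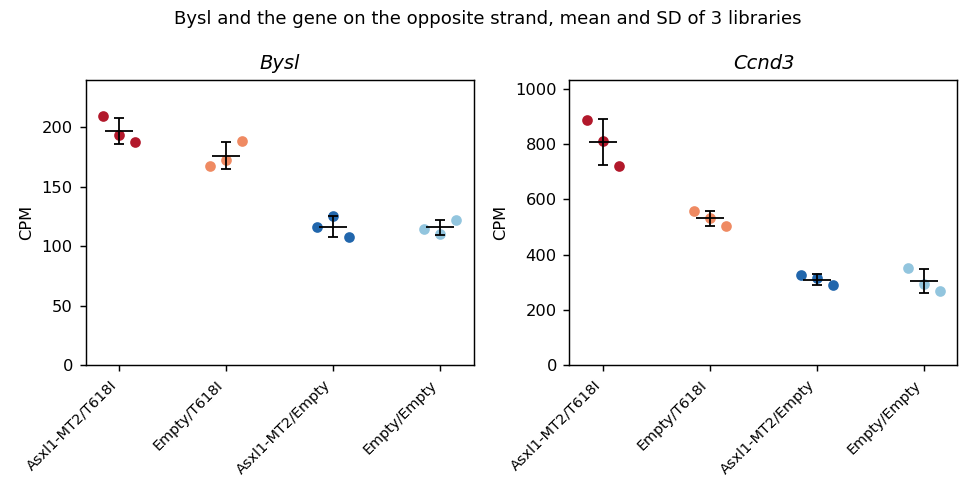
CPM of Bysl (left) and of Ccnd3, the overlapping gene on the opposite strand (right), in every library by group, with the mean and SD of 3 libraries. Both are highest in Asxl1-MT2/T618I, and Bysl there overlaps Empty/T618I while Ccnd3 does not.

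In Asxl1-MT2/T618I and Asxl1-MT2/Empty, most of the 57 genes were lowest in the same library. In Asxl1-MT2/T618I, library A was the lowest of the 3 for 51 of the 57 genes, and the median over the 57 of log2 CPM relative to Empty/Empty was -0.46 in library A, -0.37 in B and -0.25 in C. In Asxl1-MT2/Empty, library A was lowest for 44 genes, with medians of -0.22 in A, -0.10 in B and -0.05 in C. The medians were 0.13, 0.27 and 0.17 in Empty/T618I and -0.01, -0.05 and 0.08 in Empty/Empty. There the lowest library was less uniform: A, B and C were lowest for 26, 4 and 27 genes in Empty/T618I and for 18, 29 and 10 in Empty/Empty. The 57 genes of a library are therefore not independent measurements of its group. The summed late neutrophil markers were at 27934, 22739 and 19910 CPM in Asxl1-MT2/T618I libraries A, B and C, the monocyte markers at 1131, 952 and 823 CPM, and their part in these differences was not tested. With any 1 library left out, 52 to 56 of the 57 genes still fell against Empty/T618I. The 52 was the count without Asxl1-MT2/T618I library A, where Imp4 (adjusted p = 0.119), Ltv1 (adjusted p = 0.0584), Nip7 (adjusted p = 0.153) and Pes1 (adjusted p = 0.185) lost their call. Imp4 and Pes1 also lost it without library B of that group, both and Nip7 without library A or B of Empty/T618I, and Pes1 without library A or B of Asxl1-MT2/Empty.

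Other genes of the same pathway, listed by role, were also mostly lower with both constructs. Of 121 listed, 120 were tested, and in Asxl1-MT2/T618I against Empty/T618I 82 fell and 1 rose, beside 18.5% and 25.4% of all genes tested, with a median of -0.37. By role the falls were 3 of 9 other polymerase I genes, 8 of 11 snoRNP genes, 25 of 37 small subunit genes, 34 of 42 large subunit genes and 12 of 21 genes of RNase MRP and the exosome. The largest were in Mdn1, an ATPase that strips factors from large subunit precursors (70.3 CPM in Asxl1-MT2/T618I and 146 CPM in Empty/T618I on average, log2 fold change -1.05), Rcl1 (-0.84) and Sdad1 (-0.73). In Empty/T618I against Empty/Empty 15 of the 120 rose, a smaller share than the 17.6% of all genes, and 2 fell, beside 15.9%. The largest rises were in Pop1, a protein of RNase MRP (0.46), Ngdn (0.40) and Nol10 (0.40). With Asxl1-MT2 alone edgeR called 0 in either direction, beside 1.86% of all genes. Against Asxl1-MT2/Empty 50 fell and 4 rose in Asxl1-MT2/T618I, beside 22.8% and 26.9% of all genes, with Mphosph10, a protein of the U3 snoRNP, at -0.78, the H/ACA protein Nop10 at -0.69 and the polymerase I subunit Znrd1 at -0.68. The interaction was called lower for 37 and higher for 0, beside 5.51% and 14.1%, with Mdn1 at -0.80, Rcl1 at -0.76 and Rpp40, a protein of RNase P and MRP, at -0.70.

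The ribosomal protein genes were also counted. Of 79 cytoplasmic ribosomal protein genes tested, a list chosen after values were seen, 10 fell and 0 rose in Asxl1-MT2/T618I against Empty/T618I, beside 18.5% and 25.4% of all genes, with a median of -0.14. Against Asxl1-MT2/Empty 24 of them fell and 0 rose in Asxl1-MT2/T618I, beside 22.8% and 26.9% of all genes, with a median of -0.18, and 2 had a lower interaction. Of 11 tested snoRNA host genes, 6 fell, with a median of -0.39. Of 18 S phase genes 4 fell and 0 rose in Asxl1-MT2/T618I against Empty/T618I, a share near that of all genes, and 9 fell and 4 rose against Asxl1-MT2/Empty. In Empty/T618I against Empty/Empty 3 of the S phase genes rose and 2 fell. Of 17 genes of G2 and M phase, 0 were called in Asxl1-MT2/T618I against Empty/T618I, 6 rose and 0 fell against Asxl1-MT2/Empty, and 6 rose and 0 fell in Empty/T618I against Empty/Empty.

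Myc, the growth regulator whose binding sequence was searched above, was at 166, 206 and 208 CPM in Asxl1-MT2/T618I, 358, 399.6 and 296 CPM in Empty/T618I, 299, 338 and 342 CPM in Asxl1-MT2/Empty and 400.0, 408 and 339.7 CPM in Empty/Empty. All 3 libraries with both constructs were below all others. Myc fell against Empty/T618I (log2 fold change -0.86, SE 0.11, adjusted p = 1.33e-05) and against Asxl1-MT2/Empty (-0.76, SE 0.11, adjusted p = 3.41e-05), and its interaction was -0.63 (SE 0.16, adjusted p = 0.0104). With T618I alone it was not called (-0.12, SE 0.11, adjusted p = 0.438), nor with Asxl1-MT2 alone (-0.23, SE 0.11, adjusted p = 0.489). Of 10 tested genes of the Myc and Max network, 6 rose and 2 fell in Asxl1-MT2/T618I against Empty/T618I, beside 25.4% and 18.5% of all genes. The part of Myc in the levels of the 57 genes was not tested.

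Markers of other cell types were counted in the same libraries. The early neutrophil granule genes were lower with T618I: their summed level was 14467 to 19082 CPM in Asxl1-MT2/T618I, 16049 to 19289 CPM in Empty/T618I, 38370 to 43191 CPM in Asxl1-MT2/Empty and 34064 to 43123 CPM in Empty/Empty, and 1 of 7 rose and 0 fell in Asxl1-MT2/T618I against Empty/T618I. The mast cell and basophil genes summed to 3744 to 4142 CPM in Asxl1-MT2/T618I, 3772 to 6846 CPM in Empty/T618I, 1075 to 1149 CPM in Asxl1-MT2/Empty and 1541 to 1710 CPM in Empty/Empty, with 15 of 16 higher in Empty/T618I than in Empty/Empty. In Asxl1-MT2/T618I against Empty/T618I, 9 of the 16 fell and 0 rose, with a median log2 fold change of -0.52, beside -0.55 for the 57 genes. Of 5 tested monocyte genes 4 rose in Asxl1-MT2/T618I against Empty/T618I. Of 6 tested megakaryocyte and erythroid genes 4 fell in Asxl1-MT2/T618I against Empty/T618I, and 4 rose and 1 fell in Empty/T618I against Empty/Empty, while Hba-a1 and Hbb-bt were at 0 in all 12 libraries. The lymphoid list summed to 35.9 to 40.9 CPM in Asxl1-MT2/T618I and 47.6 to 91.7 CPM in Empty/T618I, with Cd3e and Pax5 at 0 in both groups. Over all genes tested, 25.4% rose and 18.5% fell in Asxl1-MT2/T618I against Empty/T618I. In Empty/T618I against Empty/Empty, 17.6% of all genes rose and 15.9% fell. The part of these marker lists in the levels of the 57 genes was not tested.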

How the data were processed

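RNA-seq counts were analysed from 12 libraries in 4 groups of 3. The authors deposited 1 table of raw counts per gene symbol. The submitters' processing notes name mm10 as the build and list Trimmomatic, STAR and DESeq2 without versions or roles. The counting tool, the annotation and the strand setting are not given in the sources used here. BGI made the libraries, per the labels' protocols.

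The 57 members, their steps, the gene lists and the tests were chosen with earlier results of these data known. Genes were filtered with filterByExpr, which left 11578 holding 99.94% of the counts. With edgeR 4.0.16 in R 4.3.3, a quasi-likelihood model with 1 mean per group was fitted to the 12 libraries, with TMM factors from 0.919 to 1.03. Benjamini-Hochberg adjustment ran over the 11578 genes, and an adjusted p under 0.05 made a call. The interaction is the effect of Asxl1-MT2 in T618I cells minus its effect in cells without T618I. The procedure was tested on simulated data that gave all genes the same spread and placed changes only in Asxl1-MT2/T618I. Recovery of changes in comparisons without that group was therefore not tested.

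The text gives per-library values for 20 fixed members, for the 6 called members with the largest absolute log2 fold change in each comparison, and for checks; of other pathway genes it names at most 3 a comparison. Noc2l and Nat10 in Asxl1-MT2/Empty, Ccnd3 and the ribosomal protein list were chosen after values were seen. Exon lengths and overlaps come from GENCODE M21 and promoter windows from RefSeq, both on GRCm38. Alternatives were DESeq2 1.42.0 (size factors or its Wald test), no filter, a fit to the groups compared, a block by column letter, each library left out, each Empty/Empty library counted as Empty/T618I and, chosen after seeing the data, no TMM factors and no letter C libraries. Counts of replicate pairs differed by more than sampling noise, with chi-square per degree of freedom from 3.28 to 13.9.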

Additional observations from a re-analysis of the deposited data

Results flagged for a closer look

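For 33 of the 57 genes the effect of Asxl1-MT2 differed between cells with T618I and cells without it, by the interaction term of the edgeR fit, and always in the lower direction. The interaction on the log2 scale, the effect in T618I cells minus the effect in the other cells, was as follows. Among polymerase I genes it had Polr1a at -0.50, Polr1b at -0.50 and Polr1e at -0.48. Among snoRNP genes it had Nop56 at -0.58, Nop58 at -0.49, Dkc1 at -0.61, Gar1 at -0.61, Nhp2 at -0.40 and Nolc1 at -0.56. Small subunit genes had Rrp12 at -0.33, Utp20 at -0.75, Utp14a at -0.42, Wdr43 at -0.59, Wdr3 at -0.39, Wdr75 at -0.47, Heatr1 at -0.53, Nop14 at -0.53, Tsr1 at -0.42, Pno1 at -0.58 and Ddx10 at -0.72. Large subunit genes had Rrp1b at -0.41, Nop16 at -0.48, Noc3l at -0.53, Gnl3 at -0.67, Brix1 at -0.46, Ebna1bp2 at -0.51, Mrto4 at -0.36, Ddx18 at -0.38 and Ddx56 at -0.47. Of the genes of several steps there were Ncl at -0.57, Npm1 at -0.55, Mybbp1a at -0.49 and Ddx21 at -0.67. Of these 33 calls, 17 held when each library was left out in turn. The late neutrophil markers, all 11 of which had a higher interaction, stood apart in the same libraries, and their part was not tested. The part of the unequal Asxl1, Csf3r and Hoxb8 levels given above was not tested either.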

How the results depend on the processing

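The falls in Asxl1-MT2/T618I against Empty/T618I held their direction for all 56 genes under each alternative run, of which 2, no TMM factors and no letter C libraries, were chosen after seeing the data. Their count ran from 52 to 56 with 1 library left out. It was 52, 51 and 56 with library A, library B or library C of Empty/Empty moved to Empty/T618I. With 1 library left out, the genes called higher in Empty/T618I against Empty/Empty ran from 11 to 24 and those called lower from 0 to 1, the genes called lower in Asxl1-MT2/T618I against Asxl1-MT2/Empty from 12 to 33, and those with a lower interaction from 18 to 38. With library A, library B or library C of Empty/Empty moved to Empty/T618I, 0, 0 and 7 genes were called higher and 0, 0 and 0 lower in Empty/T618I against Empty/Empty, 19, 17 and 22 lower in Asxl1-MT2/T618I against Asxl1-MT2/Empty, and 4, 1 and 20 lower in the interaction; the cause was not tested. In Asxl1-MT2/Empty against Empty/Empty, 1 gene was called lower by the DESeq2 Wald test and with the replicate block (Noc2l each time), and 1 without the letter C libraries (Nat10). On library totals with no TMM factors the median log2 fold change was -0.67 in Asxl1-MT2/T618I against Empty/T618I, -0.35 against Asxl1-MT2/Empty and -0.51 for the interaction. Without the letter C libraries, 0 genes were called lower in Empty/T618I against Empty/Empty, 1 (Bysl) was called higher in Asxl1-MT2/T618I against Empty/T618I, and the median interaction was -0.50.

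The column letters were not taken to pair the libraries, and the values do not decide whether they do. Deviations of same-letter libraries correlated from -0.0573 to 0.22 over genes, and those of different letters from -0.226 to 0.135. In both comparisons with Empty/Empty, A with A and C with C were at 0.149 to 0.22. With a block by letter, calls over all genes went from 3878 to 4285 in Empty/T618I against Empty/Empty and from 2273 to 2851 for the interaction, and rose in the other comparisons too. With the replicate block by letter, 23 genes were called higher and 1 lower in Empty/T618I against Empty/Empty, 56 lower in Asxl1-MT2/T618I against Empty/T618I, 35 lower and 1 higher against Asxl1-MT2/Empty, and 38 lower for the interaction.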
